A study of Mus musculus with 56 samples.

Results

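The clones described here are the antioxidant and detoxification enzymes of a cDNA microarray hybridized with mouse lung RNA after injection of oleic acid (OA). They were chosen by gene symbol alone, as every spot named for a glutathione transferase, glutathione peroxidase, peroxiredoxin, thioredoxin or related protein, catalase, heme oxygenase, quinone reductase, glutathione synthesis enzyme, cytochrome P450, aldehyde dehydrogenase or carboxylesterase. The rule found 66 clones of 57 genes, out of 7625 clones with a gene name and 9984 spots in all. Of these, 40 clones carry a redox enzyme and 26 a cytochrome P450, an aldehyde dehydrogenase or a carboxylesterase. No spot was named for a superoxide dismutase or a flavin monooxygenase, which the rule also covered.

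Glutathione is made in the cell by glutamate-cysteine ligase, whose catalytic subunit is Gclc and whose modifier subunit is Gclm, and it serves the peroxidases and transferases that remove peroxides and reactive lipids. Thioredoxins and peroxiredoxins form a parallel system for reducing protein disulfides and peroxides. Many genes of both systems are targets of the transcription factor NRF2, which KEAP1 holds in check until it is modified by oxidants. Cytochrome P450 and aldehyde dehydrogenase enzymes oxidize lipids and foreign compounds, and in lung they are abundant in club cells of the airway.

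All mice were C57Bl/6J females, 7 weeks old, and each received a single injection in the tail vein under ketamine and xylazine anesthesia, so that anesthesia and injection were shared by both groups. OA, a fatty acid that injures the lung when it is given in the blood, was injected in 27 mice, and physiological serum in 8 control mice. The early stage held 10 OA mice (4 killed after 1 hour, 6 after 1.5), the intermediate stage 11 (7 after 3 hours, 4 after 4) and the late stage 6 (3 after 18 hours, 3 after 24). Serum mice were fewer, with 3 early (2 after 1 hour, 1 after 1.5), 2 after 3 hours, none after 4, and 3 late (2 after 18 hours, 1 after 24). One whole lung of each mouse was used, so a change can come from the cells present as well as from their RNA, and in such a tissue fewer cells of a type and less RNA per cell cannot be told apart.

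A level below is the log2 signal of a clone in a mouse, averaged over the microarrays of that mouse, and levels of different clones were not set against each other. Of the 66 clones, 37 lay above the level of 8.95 that 95% of the unnamed spots did not exceed, 26 of the redox clones and 11 of the others, and 36.6% of all clones did so. The mouse P7L2 at 1.5 hours, with 1 microarray, stood apart from the others, with a median correlation of 0.881 with the other mice against 0.939 to 0.965 for the others, and without it the same number of clones, 2, was called over the time course. Mouse names carry a number after the letter L, whose meaning the labels do not give. The early mice were L2 (6 mice) and L3 (4 mice), the intermediate mice were L1 (3), L2 (3) and L3 (5), and the late mice were all L1 (6). Late and early mice shared no L number, so for that comparison the stage and the L number cannot be told apart.

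Over the 6 times, the members moved little. The range of the 6 time means had a median of 0.44 on the log2 scale over the 66 clones and 0.33 over all clones, while the SD between mice of the same time had a median of 0.24 for the members. Limma's moderated F test, with Benjamini-Hochberg adjustment over 7625 clones at 5%, called 153 clones, or 2.01%. It called 2 of the 66 members, Gclc and the cytochrome P450 Cyp2d22, which is 3.03% and near the background. At an unadjusted p of 0.05, 15 members passed, a count that was not set against the share of all clones. The heat map of the time means shows these 2 clones beside the many that varied little.

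**Figure D1:**
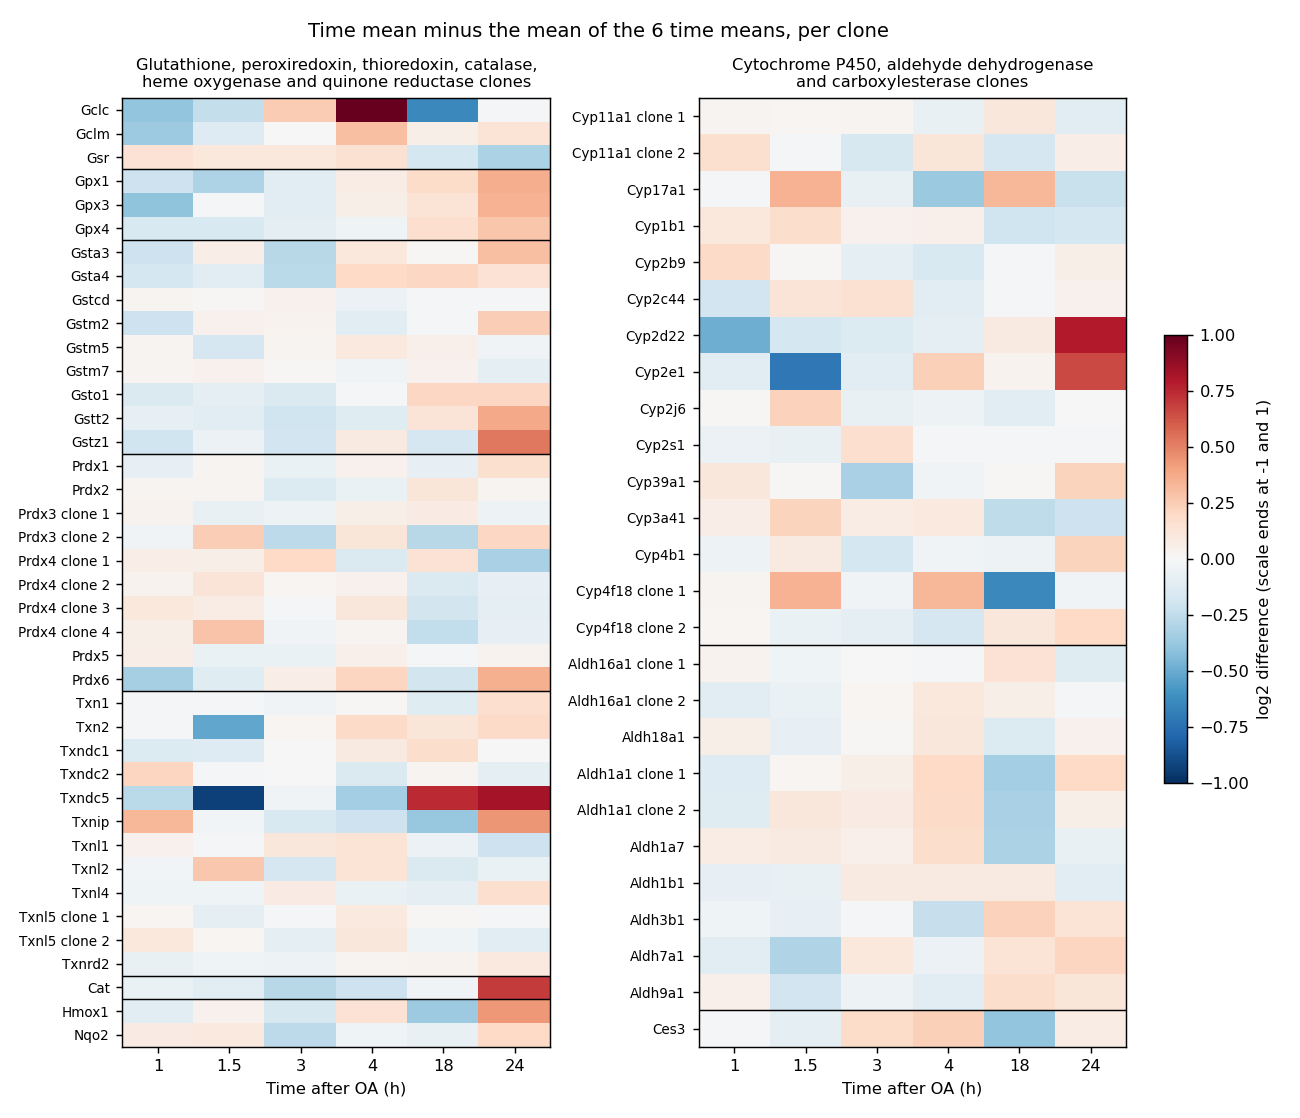
Mean level of each of the 66 clones at 6 times after OA injection (columns, hours), as the difference from the mean of the 6 time means (colour, log2, from -1 to 1), with redox enzymes on the left, the others on the right and black lines between enzyme families. Gclc is highest at 4 hours, with a mean of 11.06, and Cyp2d22 and Cat are highest at 24 hours, with means of 9.17 and 11.3.

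Gclc, the catalytic subunit of glutamate-cysteine ligase, rose from the early to the intermediate stage and fell back by the late stage. At 1 hour the 4 mice had levels of 9.88, 9.78, 9.63 and 9.24. At 1.5 hours the 6 mice lay between 9.60 and 10.08, with a median of 9.78. At 3 hours the 7 mice were spread widely, from 9.44 through a median of 10.29 to 11.25. At 4 hours the levels were 11.60, 10.79, 10.78 and 11.09, and each of these 4 mice was above every mouse of 1, 1.5, 18 and 24 hours. At 18 hours the levels were 9.40, 9.64 and 9.09, and at 24 hours 9.75, 10.03 and 10.27. The intermediate stage was higher than the early stage by 0.96 ± 0.17 (SE, n = 11 and 10), a 1.95-fold difference, with limma's adjusted p of 0.0024 and a 95% interval from 0.61 to 1.32. The late stage was lower than the intermediate stage by 0.98 ± 0.20 (n = 6 and 11; adjusted p = 0.00511 in limma). Within L1 mice, present at both of these stages, the fall was 0.78 ± 0.22 with an adjusted p of 0.225, so that call did not hold there. The late and early stages differed by -0.01, with an interval from -0.43 to 0.40. With the mean of the serum mice of each time subtracted, and that of 3 hours used for the 4 hours mice, which have none of their own, the early to intermediate difference was 0.26 (adjusted p = 0.258). The microarray of 1 of the 2 serum mice of 3 hours was the dimmest of all, as described below.

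Gclm, the modifier subunit of the same enzyme, rose with Gclc between the early and intermediate stages but by less, and then stayed near that level. The 1 hour mice had levels of 9.46, 9.53, 9.77 and 9.73, and the 4 hours mice 10.58, 10.41, 10.03 and 10.09, so these groups did not overlap. At 18 hours the levels were 10.27, 10.16 and 9.68, and at 24 hours 10.14, 10.00 and 10.22, within the range of the 3 and 4 hours mice but for one. The intermediate stage was higher by 0.39 ± 0.08, a 1.31-fold difference (adjusted p = 0.0121 in limma), and the late stage differed from it by -0.05, with an interval from -0.25 to 0.15. Over the 6 times Gclm had an adjusted p of 0.0567. With the serum mean of each time subtracted, the late minus intermediate difference of Gclm was -0.30 (adjusted p = 0.0217 in limma). The spread of the serum mean does not enter that test, and Gclc was not called between these stages there.

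These were the 2 members called between the early and intermediate stages, where limma called 2.57% of all clones, 1.56% higher and 1.01% lower. Mice of L2 and L3 were present at both stages, and within them, with the L number as a block (10 early and 8 intermediate mice), the differences were 1.11 ± 0.19 for Gclc (adjusted p = 0.0108 in limma) and 0.46 ± 0.09 for Gclm (adjusted p = 0.0332), the only 2 members called there, where 0.393% of all clones were called. Gsr, the reductase that regenerates glutathione, had mean levels between 7.17 and 7.64 at the 6 times, under the level of the unnamed spots, and an adjusted p of 0.284 in limma.

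**Figure D2:**
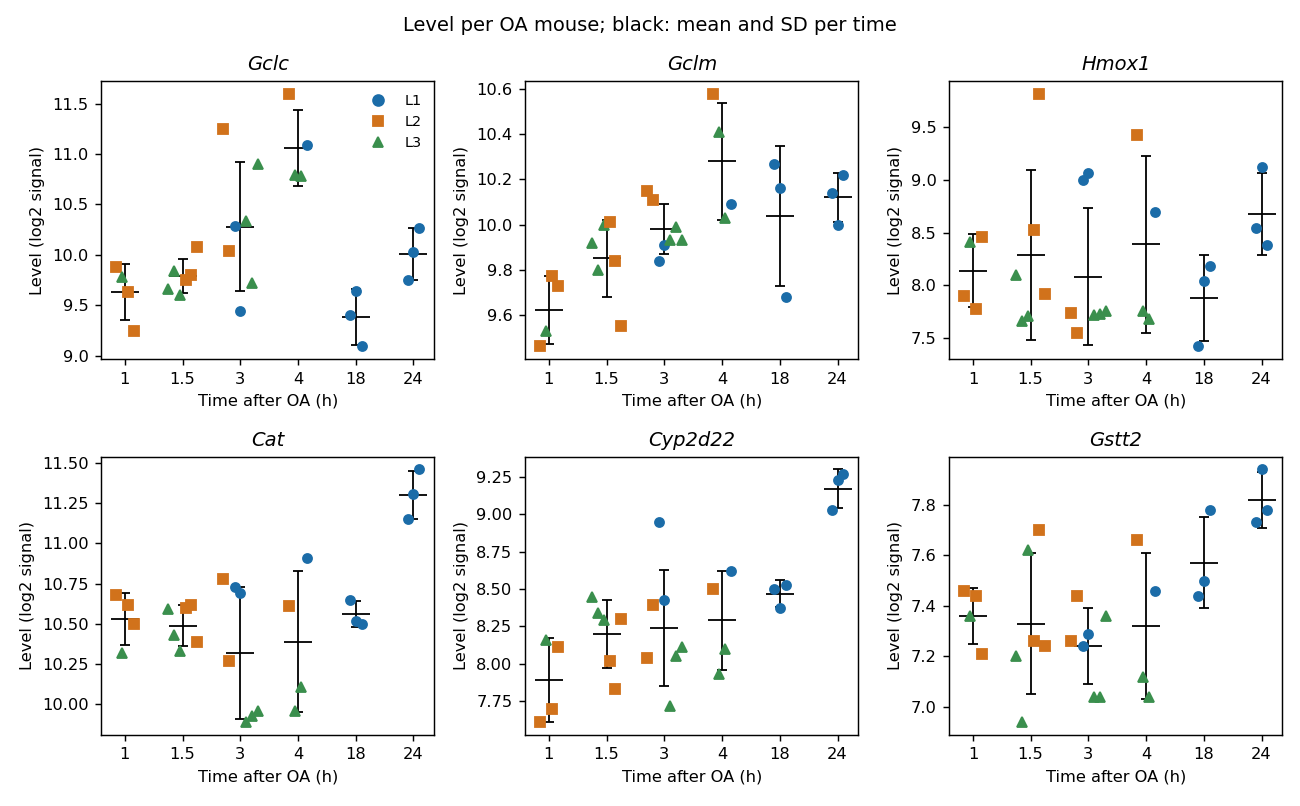
Level (log2 signal) of 6 clones in each of the 27 OA mice by time after injection (hours), with the L number of the mouse as marker and colour, and the mean and SD of each time in black. Every 4 hours mouse had a Gclc level of at least 10.78, and every 24 hours mouse a Cyp2d22 level of at least 9.03, while Hmox1 ranged from 7.42 to 9.82 with wide spread within times.

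Promoter sequences are shown for Gclm, which rose, for Cat and Prdx1, which are taken up below, and for Srxn1, a gene of the same pathway that rose and fell like Gclc. They come from RefSeq on build GRCm38.p6, from 250 bases before to 50 bases after the transcript start, and are written 5′ to 3′ on the strand of the gene. The searched motif was the core of the antioxidant response element, the NRF2 binding sequence, spelled TGACNNNGC and read on both strands, and capitals mark it.
Gclm (chr3:122245307-122245606, plus strand): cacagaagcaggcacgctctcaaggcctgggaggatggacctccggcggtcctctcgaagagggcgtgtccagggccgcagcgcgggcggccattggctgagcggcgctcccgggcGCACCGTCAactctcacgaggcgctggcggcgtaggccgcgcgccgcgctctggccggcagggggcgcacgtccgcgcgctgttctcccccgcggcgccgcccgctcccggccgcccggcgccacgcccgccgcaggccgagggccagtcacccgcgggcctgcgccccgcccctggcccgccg
Srxn1 (chr2:152105274-152105573, plus strand): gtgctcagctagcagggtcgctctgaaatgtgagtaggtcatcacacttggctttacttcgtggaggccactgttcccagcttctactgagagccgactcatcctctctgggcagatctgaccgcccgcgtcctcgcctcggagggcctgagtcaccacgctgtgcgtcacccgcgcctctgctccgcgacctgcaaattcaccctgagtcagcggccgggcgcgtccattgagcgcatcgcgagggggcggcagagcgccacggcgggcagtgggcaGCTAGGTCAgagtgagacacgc
Prdx1 (chr4:116685349-116685648, plus strand): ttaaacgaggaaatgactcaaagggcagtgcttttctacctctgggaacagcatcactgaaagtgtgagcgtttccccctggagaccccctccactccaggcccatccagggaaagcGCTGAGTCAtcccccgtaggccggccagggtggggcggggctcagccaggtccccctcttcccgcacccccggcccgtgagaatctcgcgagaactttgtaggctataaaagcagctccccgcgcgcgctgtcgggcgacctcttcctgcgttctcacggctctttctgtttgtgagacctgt
Cat (chr2:103485104-103485403, minus strand): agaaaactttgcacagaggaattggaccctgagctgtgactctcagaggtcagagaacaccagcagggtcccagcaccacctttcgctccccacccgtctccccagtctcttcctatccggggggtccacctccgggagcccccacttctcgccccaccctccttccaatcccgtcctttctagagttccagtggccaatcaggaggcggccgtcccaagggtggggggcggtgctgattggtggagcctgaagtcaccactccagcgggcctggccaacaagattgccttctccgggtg
Each of Gclm, Srxn1 and Prdx1 held 1 match in its window, and Cat held none. A window was found for 43 of the 57 member genes, of which 11 held the core in at least 1 window, 8 of 27 redox genes and 3 of 16 of the others (25.6%, 29.6% and 18.8%), against 14% of all genes with a window. The core of the aryl hydrocarbon receptor element, spelled GCGTG on both strands, was in the windows of 18 of 43 member genes (41.9%), namely 15 of 27 redox genes (55.6%) and 3 of 16 of the others (18.8%), against 35.2% of all genes. Gclc, Gsr, Gsta4, Gstt2, Hmox1, Prdx6 and Cyp2d22 were among those with no window in the table used. A match of letters is a description and not a measured binding site.

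Among genes of the same pathway from fixed lists, Srxn1, the sulfiredoxin that repairs overoxidized peroxiredoxins, had mean levels of 8.69 at the early, 9.37 at the intermediate and 8.63 at the late stage. It rose by 0.68 ± 0.09 (adjusted p = 5.33e-05 in limma) and then fell by 0.74 (adjusted p = 8.34e-05), and within L2 and L3 mice the rise was 0.68 (adjusted p = 0.00221). Within L1 mice Srxn1 fell by 0.68, with an adjusted p of 0.151 in limma, and was not called. It was the only one of 14 clones of other antioxidant and NADPH supply genes called over the 6 times, and Slc7a11, which imports cystine for glutathione synthesis, had a difference of 0.74 with an adjusted p of 0.253. Of 9 clones of NRF2 and its regulators, 1 was called over the 6 times and 2 between the early and intermediate stages, both of Keap1, the NRF2 inhibitor. One Keap1 clone rose by 0.42 ± 0.08 (adjusted p = 0.00282) and the other by 0.40 ± 0.09 (adjusted p = 0.0124), while within L2 and L3 mice the differences were 0.40 and 0.38, close in size, with adjusted p of 0.0939 and 0.21. Against serum mice the same clones disagreed in sign, with 0.45 for the one and -0.76 for the other. Both clones of Nfe2l2, which encodes NRF2, had differences of 0.21 and 0.13 that did not pass (adjusted p of 0.321 and 0.745).

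Of 16 clones of heme and iron genes, 4 were called over the 6 times. Most of them were metallothioneins, small cysteine-rich metal-binding proteins, namely 1 of 2 clones of Mt1 and both clones of Mt2, which rose by 1.71, 1.59 and 1.54 from the early to the intermediate stage (adjusted p of 1.31e-07, 1.31e-07 and 2.5e-05) and fell by 1.80, 1.39 and 1.33 afterwards (adjusted p of 1.19e-06, 7.96e-06 and 0.000568). The other was Hpxn, hemopexin, the plasma protein that binds free heme, which rose by 1.62 from the intermediate to the late stage (adjusted p = 0.000109). Within L1 mice the rise of Hpxn was 0.86 (adjusted p = 0.134 in limma) and was not called, whereas the falls of those metallothionein clones were called there. Of 14 clones of phase II and transport genes, 2 were called, the carbonyl reductase Cbr3, which rose by 0.43 at the intermediate stage (adjusted p = 0.0024), and the glucuronosyltransferase Ugt1a6a (adjusted p = 0.0294 over the 6 times). Within L2 and L3 mice Cbr3 rose by 0.43 as well, but with an adjusted p of 0.0641 in limma. None of 12 clones of xenobiotic receptors and their partners and none of 8 clones of oxidant-producing enzymes was called. The lists were chosen with earlier results of these data known.

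Markers of other cells moved over the same interval. Of 14 clones of B and plasma cell markers, 5 were lower at the intermediate than at the early stage, among them 2 of the 4 clones of Ms4a1, by 1.04 and 0.48 (adjusted p of 0.000427 and 0.00983 in limma), while its other clones differed by 0.26 and -0.20 and did not pass, and the mean level of the list per mouse lay between 8.09 and 8.76 early and between 7.62 and 8.51 at the intermediate stage. None of 4 neutrophil clones was called between these stages, with a mean level per mouse from 9.86 to 11.45 early and from 9.74 to 10.83 intermediate. The part of cell composition in the rise of Gclc and Gclm was not tested.

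Catalase, Cat, which breaks down hydrogen peroxide in peroxisomes, was highest at 24 hours. The levels at 24 hours were 11.15, 11.31 and 11.46, above all 24 mice of the other times. At 18 hours they were 10.65, 10.52 and 10.50, at 1 and 1.5 hours the 10 mice lay between 10.32 and 10.68, and at 3 and 4 hours the 11 mice lay between 9.89 and 10.91. The late stage was higher than the intermediate stage by 0.57 ± 0.14 (adjusted p = 0.0276 in limma), and the 6-time test gave an adjusted p of 0.0615, or 0.0251 with the L number as a block, where it passed. The low intermediate values belonged to the L3 mice, with 9.89, 9.93, 9.96, 9.96 and 10.11, whereas the L1 mice of that stage had 10.73, 10.69 and 10.91 and the L2 mice 10.78, 10.27 and 10.61. Within L1 mice (3 intermediate, 6 late), the difference was 0.12 ± 0.10 (adjusted p = 0.786 in limma), so the call did not hold there. The serum mouse of 24 hours was high as well, as described below.

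Cyp2d22, a cytochrome P450 of the 2D family, also had its highest levels at 24 hours. The 24 hours mice had levels of 9.03, 9.23 and 9.27, above every other mouse, and the 18 hours mice 8.50, 8.37 and 8.53. At 1 hour the levels were 7.61, 8.16, 7.70 and 8.11, at 1.5 hours they lay between 7.83 and 8.45, and over 3 and 4 hours between 7.72 and 8.95. Its mean over 27 mice, 8.32, was under the level of the unnamed spots. The late stage was higher than the early stage by 0.77 ± 0.15, a 1.71-fold difference (adjusted p = 0.00645 in limma), and higher than the intermediate stage by 0.56 ± 0.14 (adjusted p = 0.0351). With the L number as a block the 6-time adjusted p was 0.309 and the late minus early difference 0.20 (adjusted p = 0.998). That blocked difference is indirect, since late and early mice are linked only through the intermediate mice, and no member was called in it. Within L1 mice the late minus intermediate difference was 0.17 ± 0.13 (adjusted p = 0.767). Without the 24 hours mice P8L1 or P7L1 the 6-time adjusted p was 0.0954 or 0.0912.

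Limma called 4 members between the late and intermediate stages, where it called 3.19% of all clones (1.44% higher, 1.74% lower), 3 of them higher and Gclc lower. Beside Gclc, Cat and Cyp2d22 this was Gstt2, a theta class glutathione transferase, whose 6 late mice lay between 7.44 and 7.94, with a median of 7.76, and whose intermediate mice lay between 7.04 and 7.66, with overlap. The difference was 0.41 (adjusted p = 0.0344), and its mean level of 7.39 was under that of the unnamed spots. Within L1 mice it was 0.33 ± 0.11 (adjusted p = 0.341), and no call but that of Gsta4 was made among the members there, where 0.643% of all clones were called. Gsta4, a transferase active on the lipid peroxidation product 4-hydroxynonenal, had a difference of 0.64 ± 0.11 within L1 mice (adjusted p = 0.0411 in limma) and of 0.22 over all mice (adjusted p = 0.511). Between the late and early stages 1.65% of all clones (1.18% higher, 0.472% lower) and 1 member, Cyp2d22, were called. An unadjusted p under 0.05 was found for 20 members, and the share of all clones at that threshold was not counted.

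Some markers of liver cells were higher at the late stage too. Of 5 clones of the list (Alb1, Fga, Cyp2e1 and 2 of Ttr), 2 were called higher late than early. These were Alb1 (albumin) by 1.71 (adjusted p = 0.0386 in limma) and Fga (a fibrinogen chain) by 1.97 (adjusted p = 0.00399). Cyp2e1 differed by 0.77 (adjusted p = 0.123), and neither clone of Ttr was called. Stage and L number cannot be told apart in this comparison. The mean level of the list per mouse lay between 8.73 and 9.91 early, 8.80 and 10.04 intermediate, and 9.60 and 10.51 late. Of the 4 neutrophil clones, S100a8 was lower late than early by 1.54 (adjusted p = 0.0464) and the list had a median late minus intermediate difference of -0.66 with none called, at a mean level per mouse from 9.39 to 10.23 late. The part of either list in the late fall of Gclc or the late levels of Cyp2d22 was not tested.

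The remaining redox enzymes did not pass over the 6 times. Hmox1, the heme oxygenase that is a widely used marker of oxidative stress, had levels from 7.42 to 9.82 over the 27 mice and 6-time means between 7.88 and 8.68 (adjusted p = 0.809 in limma). Its mean over the 27 mice, 8.23, was under the level of the unnamed spots, which limits what this clone can show. Its intermediate minus early difference was 0.02, and the SD within 1.5, 3 and 4 hours was 0.81, 0.65 and 0.84, against the members' median of 0.24. The 3 mice of 18 hours lay below the 3 of 24 hours, and the other times overlapped with both. At 3 hours the L1 mice had 9.00 and 9.07 and the other 5 mice 7.55 to 7.76. Nqo2, a quinone reductase, had 6-time means between 7.66 and 8.12 (adjusted p = 0.146), also under the level of the unnamed spots.

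Of the peroxiredoxins, Prdx1, cytosolic and with an antioxidant response element core in its window, had time means from 11.71 to 11.95 (adjusted p = 0.775 in limma). Its intermediate minus early difference was 0.01. Prdx6, a lung peroxiredoxin that also reduces phospholipid hydroperoxides, had time means from 12.21 to 12.90 (adjusted p = 0.343), and Prdx2 from 9.48 to 9.74 (adjusted p = 0.522). The 4 clones of Prdx4, the peroxiredoxin of the endoplasmic reticulum, had adjusted p between 0.537 and 0.884. The glutathione peroxidases Gpx1, Gpx3 and Gpx4, of the cytosol, the plasma and membranes, each had their highest mean at 24 hours (11.92, 11.91 and 11.51) and differed between late and early stages by 0.53, 0.45 and 0.38 (adjusted p of 0.16, 0.125 and 0.142).

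Txn1, the cytosolic thioredoxin, had time means between 11.58 and 11.87 (adjusted p = 0.903 in limma). Txnip, which binds and inhibits thioredoxin, had means from 10.76 at 18 hours to 11.58 at 24 hours (adjusted p = 0.266), and with the L number as a block its adjusted p was 0.0434. Txndc5, a thioredoxin domain protein of the endoplasmic reticulum, had the widest range of time means of any member, 1.76, but its mice ranged from 4.84 to 10.23 and the adjusted p was 0.579. Its late mice lay between 9.73 and 10.23, whereas at 1.5 hours the levels went from 4.84 to 10.14.

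Of the cytochrome P450 clones other than Cyp2d22, none was called. Cyp2e1, which oxidizes ethanol and fatty acids, had the largest range of time means among them, from 10.96 at 1.5 hours to 12.33 at 24 hours (adjusted p = 0.206 in limma). Cyp1b1, an aryl hydrocarbon receptor target, had means from 6.85 to 7.22 (adjusted p = 0.322), under the level of the unnamed spots. Cyp4b1, a P450 of the lung epithelium, had means from 10.46 to 10.86 (adjusted p = 0.52). Of the aldehyde dehydrogenases, the 2 clones of Aldh1a1, the retinaldehyde dehydrogenase of club cells, were both lowest at 18 hours, with means of 12.50 and 11.55, against highest means of 13.04 and 12.07 (adjusted p of 0.379 and 0.524). The carboxylesterase Ces3 had means from 11.16 at 18 hours to 11.80 at 4 hours (adjusted p = 0.146).

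OA mice were also set against serum mice on the scanner intensities, quantile-normalized over 60 microarrays, in the mean of the 5 times with serum mice (23 OA and 8 serum mice). The labels give no L number for serum mice, so it could not be taken into account in this comparison. Serum microarrays were dimmer, with a median log2 signal from 5.73 to 8.39 against 6.75 to 9.36 for OA microarrays. Limma called 4700 of 7625 clones, or 61.6%, and 38 of the 66 members, or 57.6%, 19 higher and 19 lower in OA mice, against 34.3% and 27.3% of all clones. The members' share was near the background, with 20 of 40 redox clones (50%) and 18 of the 26 others (69.2%). The share called depended on the scaling. With the intensities centred on the median, 38 members (57.6%) were called, 13 higher and 25 lower, against 65.3% of all clones. With the fitted spot signal, 16 (24.2%) were, 10 higher and 6 lower, against 24.4% of all clones. With the authors' table, 40 (60.6%) were, 25 higher and 15 lower, against 67.3% of all clones. Of all called clones, 43.6%, 65.8% and 64% in turn were higher in OA mice, against 34.2%, 62.5% and 62.5% of called members. The median difference of all clones was 0.05, -0.06, 0.07 and 0.16 under the 4 scalings in this order. The authors' table differs by more than its scaling, since it holds a combined serum column per time in place of the 8 serum mice. Its OA columns correlated with the scanner intensities at 0.997 or more, but its serum columns at 0.815 to 0.93 over the 5 times. How far this shaped its calls, and those shared by all 4 scalings, was not tested. Called in the same direction under all 4 were 12 members, or 18.2%, and 18.5% of all clones.

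**Figure D3:**
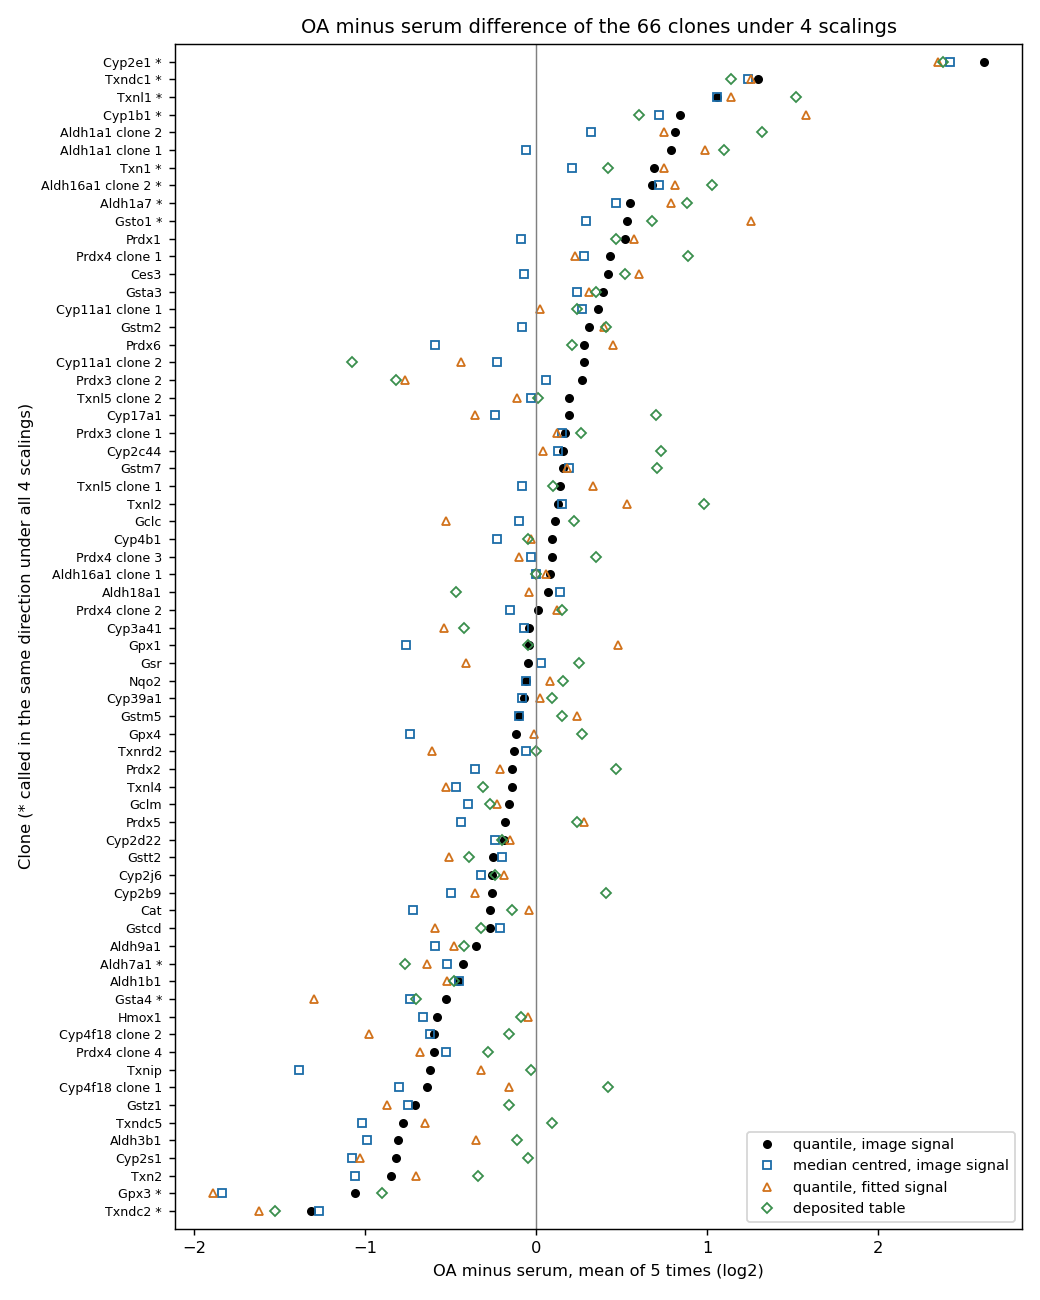
OA minus serum difference (log2, horizontal axis) of each of the 66 clones (vertical axis) in the mean of 5 times under 4 scalings of the microarrays, one marker each, with a star for the 12 clones called in the same direction under all of them. Cyp2e1 is highest at 2.62 with quantile-normalized image signal, and Txndc2 lowest at -1.32.

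The 8 members higher in OA mice under all 4 scalings were Cyp2e1, Txndc1, Txnl1, Cyp1b1, Txn1, Aldh1a7, Gsto1 and 1 of the 2 clones of Aldh16a1. On this scale 95% of the unnamed spots did not exceed 8.86. The means of Cyp1b1 and that Aldh16a1 clone were under 8.86 in both groups. In serum mice, those of Cyp2e1, Txndc1, Txnl1 and Aldh1a7 were under it too, which limits their fold differences. Cyp2e1 had levels of 9.86, 11.46 and 12.56 (lowest, median and highest) in 23 OA mice. In serum mice it had 8.98 and 8.11 at 1 hour, 9.14 at 1.5 hours, 8.84 and 8.51 at 3 hours, 8.14 and 7.80 at 18 hours and 10.38 at 24 hours. At each time every OA mouse was above every serum mouse, and the serum mouse of 24 hours stood above the other serum mice. The difference was 2.62 ± 0.23, a 6.15-fold difference (adjusted p = 9.19e-11 in limma), and between 2.35 and 2.62 under the 4 scalings. The other 3 genes of the liver list gave differences of 0.94 (Alb1), 1.16 (Fga) and 0.59 and 0.19 (2 clones of Ttr). The mean level of the list, which includes Cyp2e1 itself and so takes in its difference by construction, lay between 8.63 and 10.42 in OA mice and between 7.36 and 9.76 in serum mice. The part of liver markers in the difference of Cyp2e1 was not tested.

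Txndc1, now named Tmx1, a membrane thioredoxin-like protein of the endoplasmic reticulum, did not overlap between the groups. OA mice had levels of 8.98, 9.42 and 9.88, and the serum mice 8.46, 8.10, 8.47, 7.58, 8.43, 8.26, 8.00 and 7.88. The difference was 1.30 ± 0.11, or 2.46-fold (adjusted p = 7.83e-11 in limma). Txnl1, a thioredoxin-like protein of the proteasome, was higher by 1.06 ± 0.08, or 2.08-fold (adjusted p = 1.05e-11), with 8.51 to 9.46 in OA mice and 7.59 to 8.10 in serum mice. Txn1 was higher by 0.69 ± 0.11 (adjusted p = 3e-06), and by between 0.21 and 0.75 under the 4 scalings.

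Lower in OA mice under all 4 scalings were Txndc2, Gpx3, Gsta4 and Aldh7a1. Gpx3, the secreted glutathione peroxidase, had 10.82, 11.36 and 12.13 in OA mice, and the serum mice had 12.22, 12.06, 12.33, 11.89, 12.95, 13.31, 12.60 and 12.86, so that the groups overlapped at their edges. It was lower by 1.06 ± 0.15, or 2.09-fold (adjusted p = 9.23e-07 in limma), and the difference was -1.84 with median centring, -1.89 with the fitted signal and -0.90 in the authors' table. Txndc2, a thioredoxin described in sperm, had a mean level under that of the unnamed spots. OA mice had 5.97 to 6.91 and serum mice 7.02 to 9.41, and the difference was -1.32 ± 0.17 (adjusted p = 1.63e-07). Gsta4 was lower by 0.53 ± 0.12 (adjusted p = 0.000434), with -1.30 for the fitted signal, and Aldh7a1 by 0.43 ± 0.13 (adjusted p = 0.00599), with -0.77 in the authors' table. The means of Aldh7a1, 8.38 in OA mice and 8.79 in serum mice, were also under the level of the unnamed spots.

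Calls that depended on the scaling included both clones of Aldh1a1, whose differences were 0.79 and 0.81 with quantile normalization and -0.06 and 0.32 with median centring. The first was not called there (adjusted p = 0.672), and the second was (adjusted p = 0.0243) but not with the fitted signal (0.75, adjusted p = 0.0612). Prdx1 differed by 0.52 and -0.09 and Ces3 by 0.42 and -0.07 in the same way, so their direction turned with the scaling. Txn2, Cyp2s1 and Aldh3b1 were lower by 0.85, 0.82 and 0.81 (adjusted p of 0.000629, 2.56e-08 and 3.26e-09 in limma), but by 0.34, 0.05 and 0.11 in the authors' table, where they were not called. Txnip was lower by 0.62 (adjusted p = 0.000987), and by 0.03 in the authors' table. That table also differs in its combined serum columns, as described above. Of 5 macrophage clones 4 were called higher in OA mice, where 34.3% of all clones were, and the other, Cd68, was called lower, by 0.32 (adjusted p = 0.00537). The mean level of the list lay from 8.14 to 8.92 against 7.37 to 7.73 in serum mice, and the part of these cells in the differences was not tested.

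**Figure D4:**
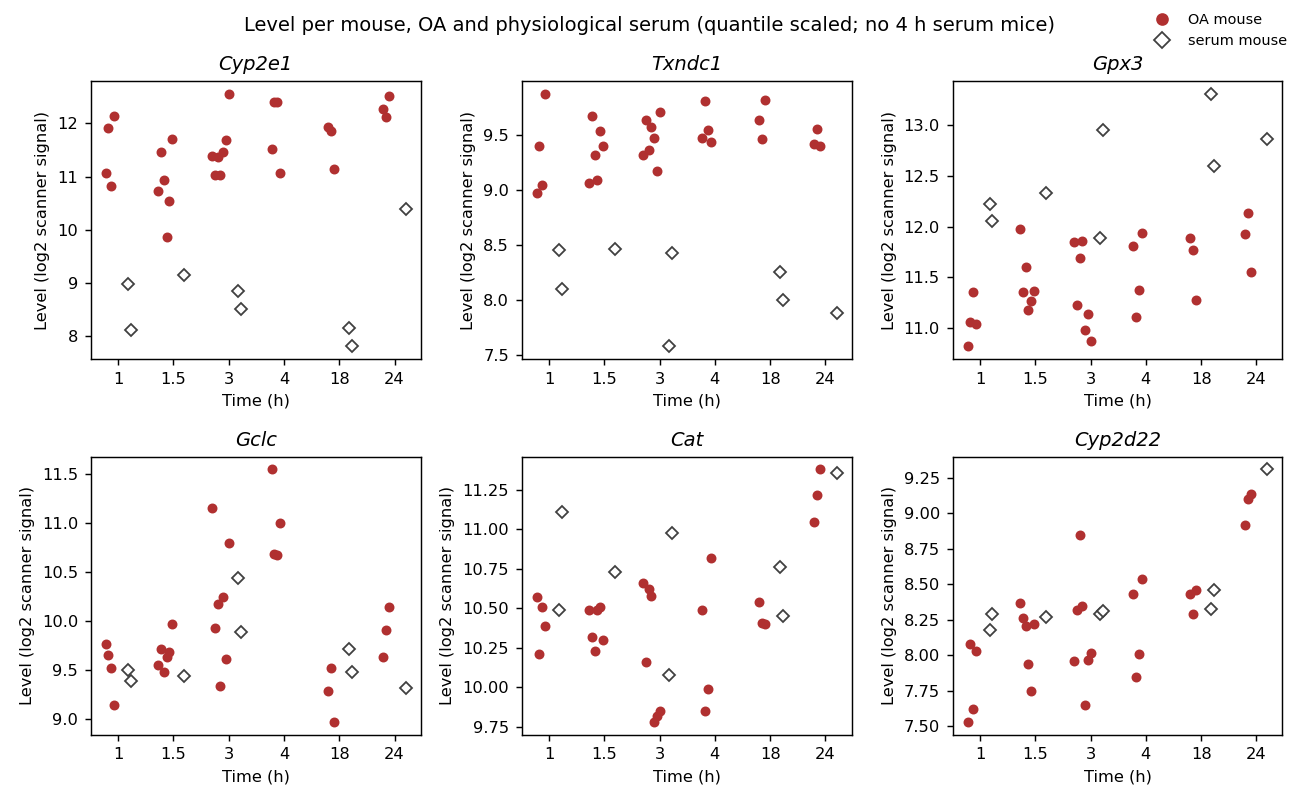
Level (log2 scanner signal, quantile-normalized) of 6 clones in each OA mouse (red) and serum mouse (open diamonds) by time after injection (hours). Cyp2e1 and Txndc1 separate the groups at each time with serum mice. By contrast, 1 of the 2 serum mice of 3 hours, with the dimmest microarray, has a Gclc level of 10.44, and the serum mouse of 24 hours a Cyp2d22 level of 9.31.

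Of the 5 clones called between stages, Gstt2 passed against serum mice in the mean of 5 times with quantile normalization, at -0.25 (adjusted p = 0.0228 in limma), and Gclc, Gclm, Cat and Cyp2d22 did not. The serum mice had Gclc levels of 9.50 and 9.39 at 1 hour, 9.44 at 1.5 hours, 10.44 and 9.89 at 3 hours, 9.72 and 9.48 at 18 hours and 9.32 at 24 hours, and so were highest at 3 hours as well. The level of 10.44 came from the dimmest microarray of all, with a median log2 signal of 5.73, where the next dimmest serum microarray had 7. The other 3 hours serum mouse, at 9.89, was also above the serum mice of the other times. At 3 hours the OA minus serum difference of Gclc was 0.02 (adjusted p = 0.966 in limma), and in the mean of 5 times 0.11, with an interval from -0.22 to 0.45. The 4 hours mice, which had the highest Gclc levels, have no serum mice of their own. Gclm differed by -0.16, with an interval from -0.33 to 0.01, but by -0.40 with median centring and -0.27 in the authors' table, where it passed (adjusted p of 0.000113 and 0.0126).

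Cat was 11.36 in the serum mouse of 24 hours and between 10.08 and 11.11 in the other serum mice, and its OA minus serum difference in the late stage was -0.15 (adjusted p = 0.63 in limma). Cyp2d22 was 9.31 in the same serum mouse and 8.18 to 8.46 in the others, with a late difference of -0.13 (adjusted p = 0.635). Over the 5 times Cat differed by -0.27 (adjusted p = 0.0796), and by -0.72 with median centring (adjusted p = 0.000126). The 24 hours levels of both clones were high in OA and serum mice alike, with a single serum mouse at that time. Hmox1 lay between 7.43 and 9.09 in serum mice and between 7.33 and 9.71 in OA mice, and had a difference of -0.58, with an adjusted p of 0.0542. It was -0.66 with median centring, where it passed (adjusted p = 0.0286), but -0.05 with the fitted signal and -0.09 in the authors' table.

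Limma called no member whose OA minus serum difference changed between stages. Between the early stage and 3 hours it called 0% of all clones, between the late stage and 3 hours 0.0131%, and between late and early stages 0.0262%. At an unadjusted p of 0.05, 3, 3 and 2 members passed, and the shares of all clones at that threshold were not counted. Taken stage by stage, members called between OA and serum mice numbered 24 early (36.4%, against 38.3% of all clones), 28 at 3 hours (42.4% against 40.1%) and 21 late (31.8% against 40.4%). Of these, 14, 16 and 11 were higher in OA mice, where the shares of all clones were 21.3%, 23.7% and 23%, and 10, 12 and 10 were lower, where they were 17%, 16.3% and 17.4%. Without serum mouse 1 of 3 hours 13 members were called at 3 hours, and without serum mouse 2 of that time 20. Without the single serum mouse of 24 hours 12 were called late. The shares of all clones without these mice were not counted.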

How the data were processed

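Lung RNA of 27 OA and 8 serum mice was measured on 60 MUSV29K nylon cDNA microarrays. The authors deposited linear spot intensities from Bzscan2, where it is not stated whether local background was subtracted, and a table of log2 values corrected for neighborhood effects and local background and quantile-normalized with the NylonArray library. The members and lists were chosen with earlier results of these data known.

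Log2 values of 50 OA microarrays were averaged per mouse, and 6 times were fitted in R 4.3.3 with limma 3.58.1 on 7625 named clones, with contrasts between stages and Benjamini-Hochberg adjustment at 5%. One microarray was left out because its label puts mouse P4L1, elsewhere a 4 hours mouse, at 1.5 hours, and one of mouse P7L3, labelled both 3 and 1.5 hours, was taken as 3 hours. For OA against serum mice, deposited intensities (floor of 1, log2, quantile) were fitted with 1 group per treatment and time. Both fits were tested on simulated data. Named were the called members, the brightest clones of 32 genes (14 not on the microarray), the 5 members highest and 5 lowest against serum, and pathway genes called over the 6 times; others, such as Txndc5, were chosen after their values were seen. Symbols were updated through RefSeq (GRCm38.p6): 50 of 57 were current, 6 older and 1 (Ces3) ambiguous. The number of microarrays limits the precision.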

Additional observations from a re-analysis of the deposited data

Results flagged for a closer look

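Over 108 groups of mice, 9 single values stood far from the other mice of their time, and chance flags about 1 in 20 such groups. Of these, 4 belonged to the mouse P7L2 at 1.5 hours, with levels of 9.64 for Gpx1, 11.76 for Prdx6, 10.9 for Ces3 and 6.6 for Txn2. The mouse P4L1 at 4 hours had 2, with 11.83 for Gpx1 and 9.02 for Gsta4. Gsr was 7.98 in the mouse P8L2 at 1.5 hours and 7.14 in the mouse P16L2 at 3 hours. One clone of Aldh1a1 was 11.73 in the mouse P2L1 at 3 hours.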

How the results depend on the processing

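The rise of Gclm from the early to the intermediate stage was called under every alternative run, and that of Gclc under all but the serum mean subtracted (0.26, adjusted p = 0.258); with each OA mouse left out in turn they lay between 0.34 and 0.43 and between 0.88 and 1.04. No paired analysis was possible because replicate numbers only follow the order of the samples. Where microarrays were the observations, the mouse was a random block. Members called over the 6 times, 2, became 35 with the serum mean subtracted, 10 with microarrays as observations and 5 with 3 stages; redox clones, 1, became 2 with median centring, 17 with serum subtracted, 3 with the L number as a block, 7 with microarrays as observations, 3 among clones above the unnamed spots and 4 with 3 stages. The others, 1, became 18 with serum subtracted, 0 with the block, 3 with microarrays as observations and 0 among clones above the unnamed spots. By construction the subtracted serum mean (that of 3 hours for the 4 hours mice) is shared by all mice of a time, and its own spread does not enter that test. All clones called, 153, became 4264 with serum subtracted, 71 with the block, 438 with microarrays as observations, 97 among clones above the unnamed spots and 354 with 3 stages. In these runs the share of all clones was counted over the 6 times, in the mean of 5 times against serum and within L1 (0.643%). It was not counted for the other comparisons below, so those member counts cannot be set against a background. Between early and intermediate stages members called were 18 with serum subtracted and 4 with microarrays as observations. Between intermediate and late stages they were 16 with serum subtracted, 0 with the block, 1 within L1 and 2 above the unnamed spots. Between early and late stages they were 3 with median centring, 7 with serum subtracted, 0 with the block, 5 with microarrays as observations and 2 above the unnamed spots. OA minus serum, members called were 16 with the fitted signal and 22 above the unnamed spots in the mean of 5 times, 6 and 14 early, 7 and 16 at 3 hours, 8 and 10 late, and all clones 1859 and 1602; the filter on dim clones tests fewer clones. With each mouse left out, members called ranged from 1 to 4 over the 6 times (redox 1 to 3, others 0 to 1, all clones 89 to 299), 1 to 5 between intermediate and late stages, 1 to 6 between early and late stages, 13 to 31 at 3 hours against serum and 12 to 23 late against serum. The extremes over the 6 times came without P7L1 (89 clones) and P4L3 (299 clones and 4 members). The late minus intermediate calls of Cyp2d22, Cat and Gstt2 were lost without 10, 7 and 9 single mice, with adjusted p up to 0.0938, 0.0877 and 0.104, and the differences stayed between 0.36 and 0.66. Among the named clones with a call, the direction of Cyp2d22, late minus intermediate, turned with serum subtracted (-0.01). OA minus serum, those of Prdx1 (-0.09), a clone of Aldh1a1 (-0.06) and Ces3 (-0.07) turned with median centring. Of all 66 members, 38 kept the same direction against serum under the 4 scalings. Some others were called both ways, as Prdx2 at -0.36 with median centring and 0.47 in the authors' table. Cyp2b9 was called at -0.26 with quantile normalization and 0.41 in the authors' table. The cause of these shifts was not tested beyond what the construction gives. Clones near the level of unnamed spots, Cyp2d22 and Gstt2 among them, are limited by signal over background.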
